A study of Oryza sativa with 3 samples.

Results

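The outermost 2 Mb of the chromosome ends were examined in 2 sets of MNase-seq data from rice (Oryza sativa, cultivar Nipponbare). An end was counted from the first base or from the last position of a chromosome in the files, and the low-coordinate ends of chromosomes 4, 9, 10, 11 and 12 were left out by rule. This gave 19 of 24 ends, with 38 Mb or 10.2% of the genome length. They held 2973725 of 26516807 single-end reads (11.2%) and 352502 of 3456855 nucleosome calls (10.2%). The ends were compared with the interior of the same chromosome, meaning all positions over 5 Mb from both of its ends. The 12 interiors covered 252.01 Mb, from 12.87 to 33.59 Mb each, with 17514891 reads and 2348670 calls. No measured value entered the choice of the ends. Whether these ends are rich in genes was not checked, because gene positions on the build of the files were not used here.

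In both sets of data, nuclei from Nipponbare seedlings were treated with MNase, and no other genotype, treatment or time point was compared. Mono-nucleosomal DNA was cut from a gel and sequenced. Replicate 1 was read as single ends of 36 bp in 2 technical replicates, which the authors pooled, and replicate 2 was an independent library that was read as pairs and deposited as nucleosome calls. The material was leaf tissue of seedlings 2 weeks old, so that every value is a mean over the cell types of a leaf.

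A nucleosome is a stretch of DNA wrapped around a histone octamer, and the DNA between neighbouring nucleosomes is the linker. MNase digests the linker before the wrapped DNA, and hence reads of single nucleosomes begin near their edges. Where nucleosomes take the same places in many cells they are called positioned or phased, and a row of them at even distances is an array. In rice, genes are known to be denser towards the arms of the chromosomes, whereas heterochromatin and transposons are concentrated around the centromeres. At the tips of the chromosomes lie the telomeres, which are made of short tandem repeats and are hard to place by short reads.

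Each form of the data had 1 biological replicate, and hence no test between samples was possible and no p-value is given. Values are means ± SD over 12 chromosomes, which describes the spread within 1 library. As a background of the same size, the interiors were divided into 119 windows of 2 Mb, and the share of these windows above the value of their own whole interior is given beside each count of ends. The 2 ends of one chromosome are compared with the same interior. Low and high ends are those at the low and high coordinates.

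Single-end reads were denser in the ends than in the interiors. Only reads with a unique position were kept by the authors, and the share of sequence open to such reads was not analysed. The density of single-end reads was 78.2 ± 5.47 reads per kb in the ends and 69.0 ± 3.52 in the interiors (SD, n = 12 chromosomes). The ratio within a chromosome was 1.14 ± 0.0852, and the ends were higher on 11 of 12 chromosomes. One by one, 18 of 19 ends were above their interior, against 52.9% of the 119 interior windows. The ends ranged from 66.6 to 85.5 reads per kb with a median of 77.5, and 12 of 19 exceeded every interior window of their own chromosome. The interior windows ranged from 46.6 to 86.6 reads per kb with a median of 70.1, so the 2 ranges overlapped when chromosomes were not matched.

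The high end of chromosome 7 had the highest density, at 85.5 reads per kb or 1.29 times its interior. It was followed by the low end of chromosome 3 with 85.0 and the high end of chromosome 4 with 83.8 reads per kb. These 3 ends differed by less than the SD over the 20 steps of 100 kb within each of them (9.17, 12.5 and 13.3 reads per kb). The lowest value was in the high end of chromosome 11, with 66.6 reads per kb or 0.940 times its interior. It was the only end below its interior. The high end of chromosome 1 (72.7 reads per kb) was nearly level with its interior at 1.01 times, and the high end of chromosome 6 (70.8 reads per kb) reached 1.05 times. The SD over steps was 8.53 in the high end of chromosome 10 and 28.8 in the high end of chromosome 6, so neighbouring ends in the order of density differed by less than the spread within one end. Low and high ends did not separate. On the 7 chromosomes where both were used, low ends had 78.0 and high ends 78.5 reads per kb, a difference of -0.511 ± 5.31.

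**Figure D1:**
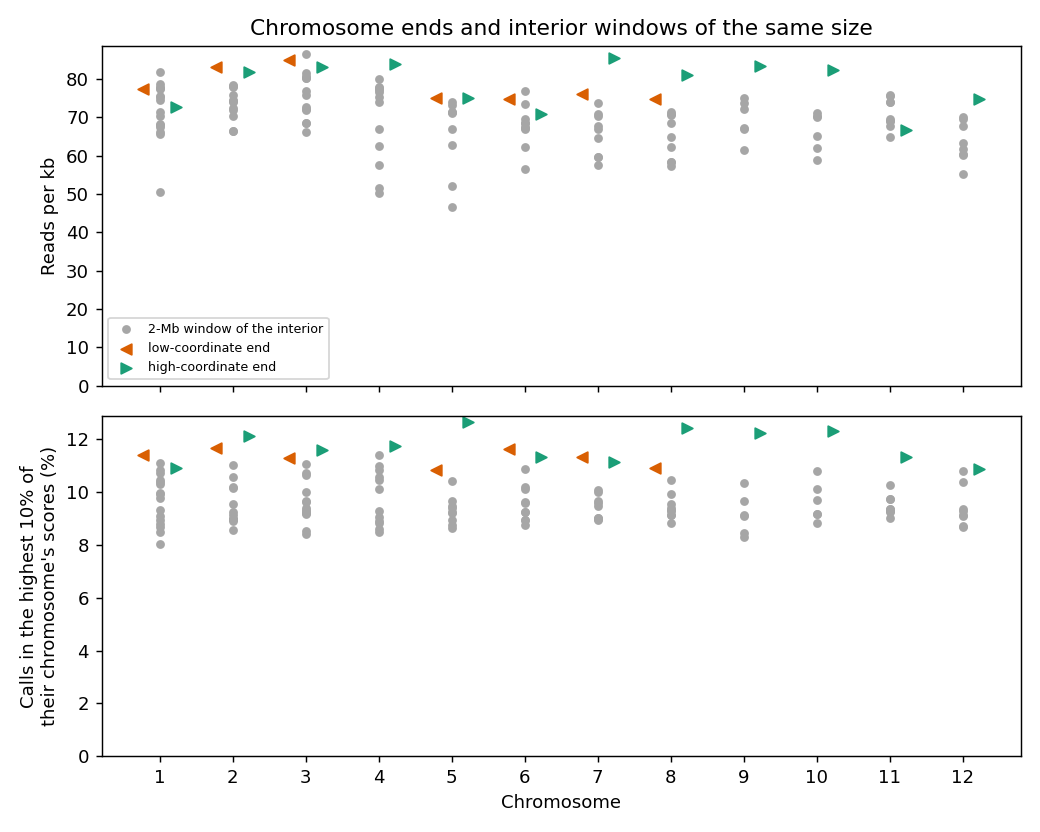
Density of single-end reads per kb (upper panel) and percentage of nucleosome calls in the highest 10% of the scores of their own chromosome (lower panel), for each chromosome. Triangles are the 2-Mb ends and grey points are the 119 2-Mb windows of the interiors; 12 of 19 ends lie above every window of their chromosome in the upper panel and 18 of 19 in the lower.

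The excess in the ends was spread over most of the sequence and did not rest on a few dense places. The median number of reads per 10 kb was 810 in the ends and 720 in the interiors, when bins of all chromosomes were pooled. The ratio of ends to interiors was 1.27 at the 10th percentile of bins, 1.20 at the 25th, 1.09 at the 75th and 1.09 at the 95th. It was smallest at the 5th percentile, with 153 reads in the ends and 147 in the interiors, a ratio of 1.04. In bins within 0.5 to 2 times the genome median of 738 reads, the ratio of densities was 1.096 ± 0.0349 and above 1 on 12 of 12 chromosomes.

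Read-rich bins, with at least 1137 reads per 10 kb, made up 5.03% of all bins of the genome. In the ends they made up 9.66% (367 of 3800; 95% exact binomial interval 8.74 to 10.6%, for counting error only) and in the interiors 4.25% (1072 of 25201). Read-poor bins, with at most 156 reads, made up 5.01% of the genome. Their share was 5.05% in the ends (192 of 3800; 4.38 to 5.80%) and 5.37% in the interiors, so that the interval for the ends included both the interior and the genome value. Neighbouring bins of one library are not independent, so these intervals are too narrow, and neither difference was tested.

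**Figure D2:**
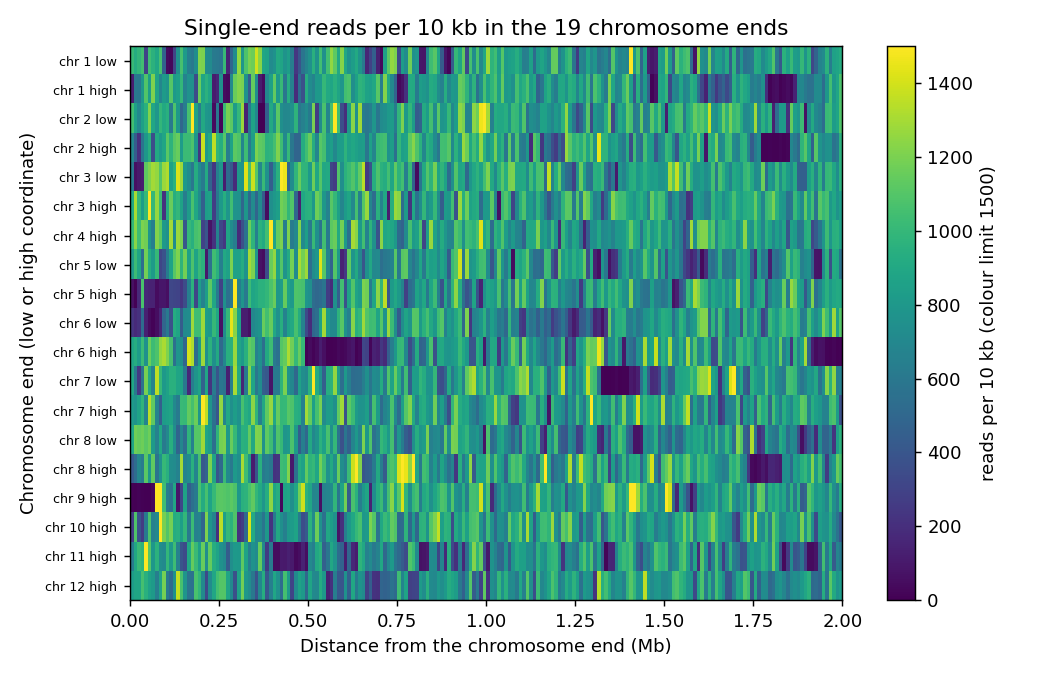
Single-end reads per 10 kb (colour, limited at 1500 reads) in the 19 ends (rows) by distance from the chromosome end in Mb. Dark blocks are read-poor stretches, such as the 160 kb in the high end of chromosome 6 and the outermost 70 kb of the high end of chromosome 9; most other bins are near the median of 810 reads.

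No step in density was found at 2 Mb. Averaged over the 19 ends, density was 79.6 reads per kb in the first Mb and 76.9 in the second. It was 75.7 in the third, 77.8 in the fourth, 76.4 in the fifth and 75.9 in the sixth Mb. Farther in, it was lower in each further Mb, with 74.1, 71.8, 70.8 and 68.8 reads per kb in the tenth. The SD over ends was between 4.59 and 7.53 in every Mb, larger than most differences between neighbours. Among the 100 steps of 100 kb, the highest mean was 85.3 reads per kb at 900 to 1000 kb from the end, and the lowest was 64.7 at 9700 to 9800 kb. Across the 100 steps, density and distance had a Spearman's rho of -0.708, given as a description because the steps share one library and neighbouring steps are not independent.

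The outermost 100 kb were uneven. The first 10 kb had 63.6 ± 34.3 reads per kb over the 19 ends, below the mean of the first Mb, although their median was 81.3. Densities in these 10 kb ran from 1.1 to 104 reads per kb, and in 3 of 19 ends the bin was read-poor. Read-poor bins made up 22 of 190 bins (11.6%) in the outermost 100 kb, a larger share than the 5.05% over the full 2 Mb. The density of calls was at its highest there. The first 100-kb step had 9.93 calls per kb, the largest value of 100 steps, and 16.3% repeated reads, also the largest. In the same step, reads at the centres of calls were 1.38 times the number expected from the local density, the smallest value of 100 steps. The expected number came from all reads of the step, so read-poor bins that hold calls lower this value by construction. How these values bear on each other was not tested.

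**Figure D3:**
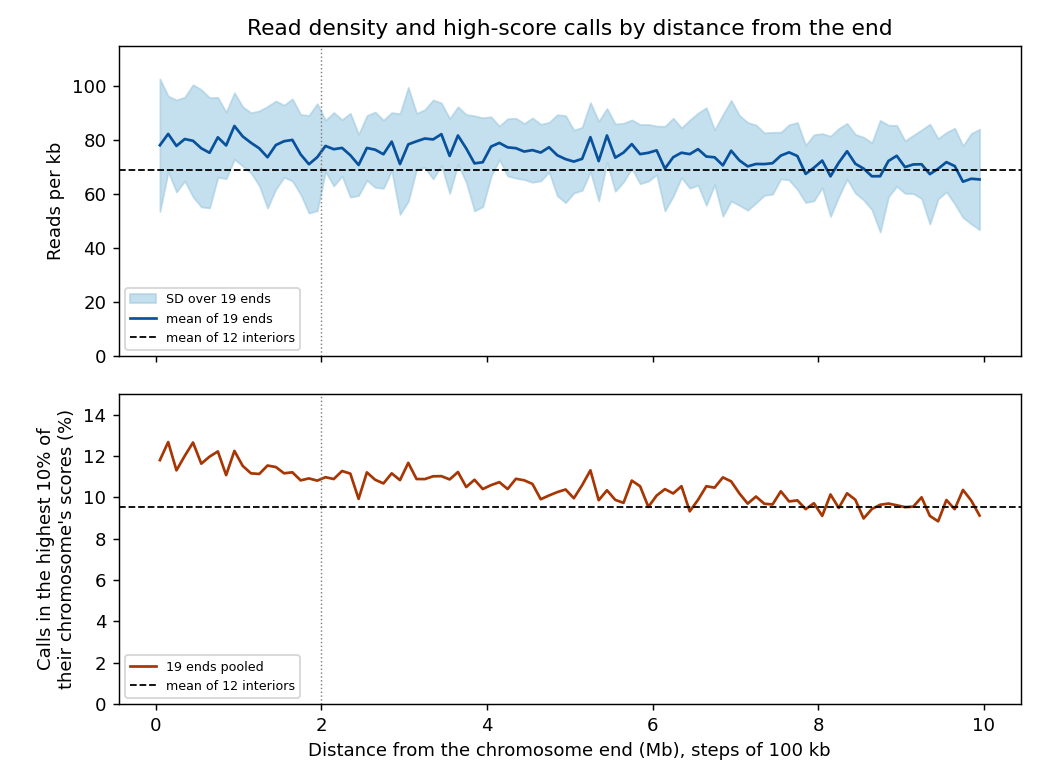
Mean density of single-end reads (upper panel, reads per kb, band: SD over 19 ends) and percentage of calls in the highest 10% of the scores of their own chromosome (lower panel, all ends pooled), by distance from the chromosome end in steps of 100 kb. The dotted line marks 2 Mb and the dashed line the mean of the 12 interiors; both curves come down gradually over 10 Mb, with no step at the dotted line.

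In contrast to the reads, nucleosome calls taken all together were not denser in the ends. Each call spans 120 bp in the list of the second library, and calls can overlap each other as alternative positions of a nucleosome. The ends had 9.26 ± 0.119 and the interiors 9.32 ± 0.0611 calls per kb, a ratio of 0.993 ± 0.0164, and the ends were higher on 3 of 12 chromosomes. Of the ends, 8 of 19 were above their interior, against 51.3% of windows. With only the 50% of calls that scored highest in the genome, the direction turned, with a ratio of 1.05 ± 0.0402 and higher values in the ends on 11 of 12 chromosomes. For all calls, values ran from 8.94 calls per kb in the high end of chromosome 12 to 9.44 in the high end of chromosome 2. Calls covered 79.8% of the ends and 80.0% of the interiors, with 9 of 19 ends above, against 53.8% of windows. Gaps of at least 150 bp between calls numbered 323 ± 18.0 per Mb in the ends and 314 ± 9.63 in the interiors. They were more frequent in 11 of 19 ends, against 47.1% of windows.

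The kind of call differed more than the number. Calls that overlapped no other call, so that a single position was given for the nucleosome, had a density of 0.815 ± 0.0336 per kb in the ends and 0.748 ± 0.0240 in the interiors. The ratio was 1.09 ± 0.0695, and the ends were higher on 12 of 12 chromosomes and in 18 of 19 ends, against 52.9% of windows. The lowest and the highest of the ends were 0.752 per kb (low end of chromosome 1) and 0.891 per kb (high end of chromosome 12). The share of calls that overlapped the next call along the chromosome was 76.2 ± 0.735% in the ends and 77.1 ± 0.484% in the interiors. Calls that overlapped only the call before them were not counted in this share. The difference of -0.861 ± 1.08 percentage points was smaller than its spread over chromosomes. This share was above the interior in 5 of 19 ends, against 44.5% of windows.

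Calls in the ends also had higher scores. The score was given by nucleR, the program with which the calls were made, and lies between 0 and 1. Scores of nucleR rate the height and the sharpness of a peak of coverage, and which form was deposited is not given in the sources used here. The median score was 0.482 ± 0.0171 in the ends and 0.470 ± 0.0146 in the interiors, with a difference of 0.0124 ± 0.00595. It was higher on 11 of 12 chromosomes and in 18 of 19 ends, against 42.9% of windows. In bins within 0.9 to 1.1 times the genome median of read number, the density of single-end reads was equal. There the difference was 0.00338 ± 0.00575, smaller than its spread, and the ends were higher on 9 of 12 chromosomes. Coverage of the paired-end library, which gave the scores, was not matched. The shift was small beside the difference between chromosomes, as the median score of the ends ran from 0.453 in the high end of chromosome 9 to 0.514 in the high end of chromosome 5.

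The upper tail of the scores showed the difference more clearly. High-score calls were defined as the highest 10% of the genome, with a score of at least 0.700. They made up 11.3% of the calls in the ends and 9.43% in the interiors, a ratio of 1.23 ± 0.109. The share was higher on 12 of 12 chromosomes and in 19 of 19 ends, against 42% of windows, and 17 of 19 ends exceeded every window of their own chromosome. The scale of the score differed between chromosomes, because only 0.578% of all calls on chromosome 9 and 3.41% on chromosome 2 passed this threshold, whereas 15.6% did on chromosome 5. Accordingly the share in single ends ranged from 0.657% in the high end of chromosome 9 to 18.9% in the high end of chromosome 5, and those values are not comparable between chromosomes.

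To remove this difference, the threshold was also set within each chromosome at its own highest 10%. By that definition 11.6 ± 0.427% of the calls in the ends and 9.56 ± 0.151% of those in the interiors were high-score calls, and the ratio was 1.21 ± 0.0506. It was above 1 on 12 of 12 chromosomes, and all 19 ends were above their interior, against 42% of windows. The ends ranged from 10.8% in the low end of chromosome 5 to 12.6% in the high end of the same chromosome, with a median of 11.4%. The interior windows ranged from 8.02 to 11.4% with a median of 9.32%, and 18 of 19 ends were above every window of their chromosome. Read density was higher in the ends as well. In bins within 0.9 to 1.1 times the median read number of the genome, the density of single-end reads was equal (ratio 1.00). There the ratio for the genome-wide threshold was 1.18 ± 0.125 and above 1 on 12 of 12 chromosomes. The scores came from the paired-end library, whose coverage was not matched in these bins.

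The share of high-score calls was also graded with distance. With thresholds set within chromosomes, it was 11.95 ± 0.665% in the first Mb and 11.2 ± 0.743% in the second (SD, n = 19 ends). It was 10.9% in the third and the fourth Mb, 10.5% in the fifth, and 9.57% in the tenth. The interiors, of which the tenth Mb is itself a part, had 9.56%. Among the steps of 100 kb the pooled share was highest, at 12.7%, from 100 to 200 kb and lowest, at 8.84%, from 9400 to 9500 kb. Spearman's rho with distance over the 100 steps was -0.868, again as a description.

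High-score calls stood next to each other more often in the ends. Pairs of neighbouring high-score calls with centres 150 to 220 bp apart, the distance of adjacent nucleosomes, numbered 225 per Mb in the ends and 169 in the interiors, and were more frequent on 12 of 12 chromosomes. They were above the interior in 19 of 19 ends, against 47.9% of windows. Runs of at least 4 such calls numbered 12.6 per Mb in the ends and 8.35 in the interiors. Runs of at least 5 numbered 3.92 and 2.54 per Mb, and runs of at least 6 numbered 1.24 and 0.702 per Mb. A larger share of high-score calls by itself gives more such pairs and runs, and the 2 were not separated.

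The 3 longest runs in the ends were of different kinds. The longest had 11 calls at chr11:27998289-28000236, about 462 kb from the high end of chromosome 11, with a mean distance of 183 ± 25.4 bp (SD) between centres and a mean score of 0.728. Only 5 single-end read centres fell within 20 bp of the 11 call centres, or 0.455 per call against an expected 0.339 per call at the density of that 100 kb. This run thus rested on the calls of the second library, and the first library had too few reads there to show an array. A further 9 lower-scoring calls lay between the 11.

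The other runs had many more reads. For comparison, high-score calls in general had 2.80 times the reads expected from local density in the high end of chromosome 4 and 2.87 times in that of chromosome 3. A run of 8 calls at chr4:35230739-35232081, about 12.2 kb from the high end of chromosome 4, had a mean distance of 175 ± 15.9 bp, a mean score of 0.790 and 81 reads at its centres. That was 10.1 per call, where 4.20 were expected from local density. A run of 8 calls at chr3:35836715-35838123, about 507 kb from the high end of chromosome 3, had a mean distance of 184 ± 8.89 bp, the most even of the 3. Its mean score was 0.786, and 114 reads were counted at its centres, or 14.3 per call against an expected 3.73.

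Regular spacing of nucleosomes was seen in the single-end reads of the ends without use of the calls. Distances between the 5' ends of reads on one strand, over all 19 ends and smoothed over 21 bp, had maxima at 181, 373, 563 and 768 bp. In the interiors the maxima were at 180, 374, 571 and 770 bp. A line through the 4 maxima gave a step of 195 bp in the ends and 197 bp in the interiors. The periodicity, taken as the rise from the trough to the first maximum in percent of the mean count at 400 to 900 bp, was 14.0% in the ends and 12.8% in the interiors.

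**Figure D4:**
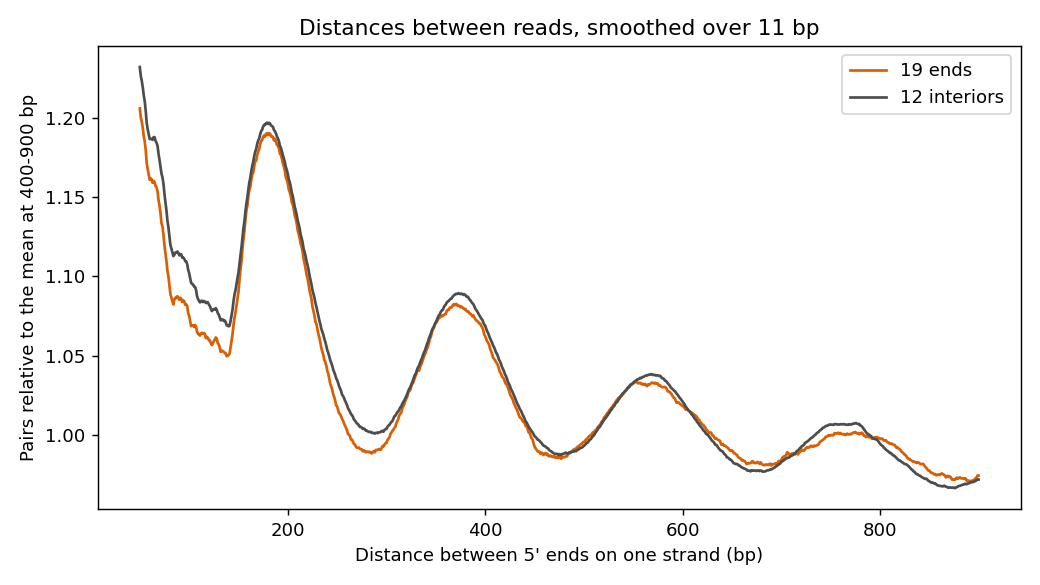
Number of pairs of single-end reads by the distance between their 5' ends on one strand (bp), relative to the mean at 400 to 900 bp, for the 19 ends and the 12 interiors, smoothed over 11 bp; the vertical axis does not start at 0. Both curves have a first maximum near 180 bp and a second near 370 bp, with lower ones beyond, and the trough before the first maximum is deeper in the ends, so that the rise is 14.0% against 12.8%.

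Per chromosome, periodicity was 14.5 ± 0.830% in the ends and 13.0 ± 0.409% in the interiors, a ratio of 1.11 ± 0.0669, and the ends were higher on 11 of 12 chromosomes. In 18 of 19 ends it was above the interior, but so it was in 72.3% of windows, which are smaller than the interiors. Whether the size of a region by itself raises this measure was not tested. Against the mean of windows of their own size, the ends had a ratio of 1.08 ± 0.0536 and were higher on 11 of 12 chromosomes. The values ran from 13.0% in the high end of chromosome 1 over a median of 14.7% to 17.5% in the high end of chromosome 5. The highest interior window had 16.4%, so only the highest of the ends lay above all windows.

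The distance between nucleosomes differed by less than its spread over chromosomes. The first maximum was at 181 ± 4.36 bp in the ends and 180 ± 2.15 bp in the interiors, with a difference of 1.50 ± 4.25 bp. It was longer than the interior in 9 of 19 ends and shorter in 9, against 41.2% of windows with a longer distance. It ran from 172 bp in the high end of chromosome 10 to 188 bp in the high end of chromosome 4 and the low end of chromosome 8. For high-score calls, the median distance between neighbouring centres was 180 bp in both parts when all chromosomes were pooled. It was longer than in the interior in 9 of 19 ends, against 41.2% of windows. On the 7 chromosomes with both ends, this distance was longer in the low end on 7 of 7, by 2.71 ± 1.60 bp, while the spacing of reads was longer in the low end on 3 of 7, with a difference of -0.429 ± 5.88 bp.

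The length of DNA protected from MNase differed by less than 1 bp. It was read from the distance between forward and reverse 5' ends, which lie at the opposite edges of a nucleosome, and was 148 bp in both the pooled ends and the pooled interiors. Single ends ranged from 146 bp (high end of chromosome 8) to 150 bp (low end of chromosome 6). The difference was -0.417 ± 0.669 bp, with the ends lower on 4 chromosomes, equal on 8 and higher on 0 of 12. The low end of chromosome 6 was the only 1 of 19 ends above its interior, against 31.9% of windows, and 6 ends were below. Against the mean of windows of 2 Mb the difference was -0.584 ± 0.589 bp, with the ends lower on 11 of 12 chromosomes.

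The 2 libraries were independent, and reads of the first were counted at calls of the second. This measure takes in the placing of nucleosomes in both libraries, but also differences in read density within a 100-kb step. Read centres within 20 bp of a call were 1.46 ± 0.0144 times the number expected from local density in the ends, and 1.44 ± 0.00855 times in the interiors. The ratio was 1.01 ± 0.0139, with higher values on 10 of 12 chromosomes and in 15 of 19 ends, against 47.9% of windows. The single ends had values between 1.43 and 1.49. In bins within 0.5 to 2 times the genome median, where the ends were still denser (density ratio 1.096), the ratio was 0.988. In bins within 0.9 to 1.1 times the median it was 0.941, and the ends were higher on 3 and on 1 of 12 chromosomes. These 2 ratios cannot show whether the small excess holds at matched density. The expected number came from all reads of the 100-kb step, so bins below the density of their step tend to low values by construction. Within the ends the measure was 0.243 in read-poor, 1.43 in the other and 1.88 in read-rich bins.

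Around high-score calls, the reads showed an array on both sides. With thresholds set within chromosomes, the profile of read centres rose from the trough to the first neighbour, at 180 bp, by 52.6% of the profile mean in the ends and 50.6% in the interiors. At the second neighbour, at 370 bp, the rise was 27.0% in the ends and 27.5% in the interiors. Per chromosome and with the genome-wide threshold, the rise at the first neighbour had a ratio of 1.03 ± 0.0368 between ends and interiors. It was higher on 10 of 12 chromosomes and in 14 of 19 ends, against 58% of windows. The ratio was 1.02 ± 0.0373 against windows of 2 Mb, so that the height of the arrays around high-score calls differed by less than its spread over chromosomes.

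**Figure D5:**
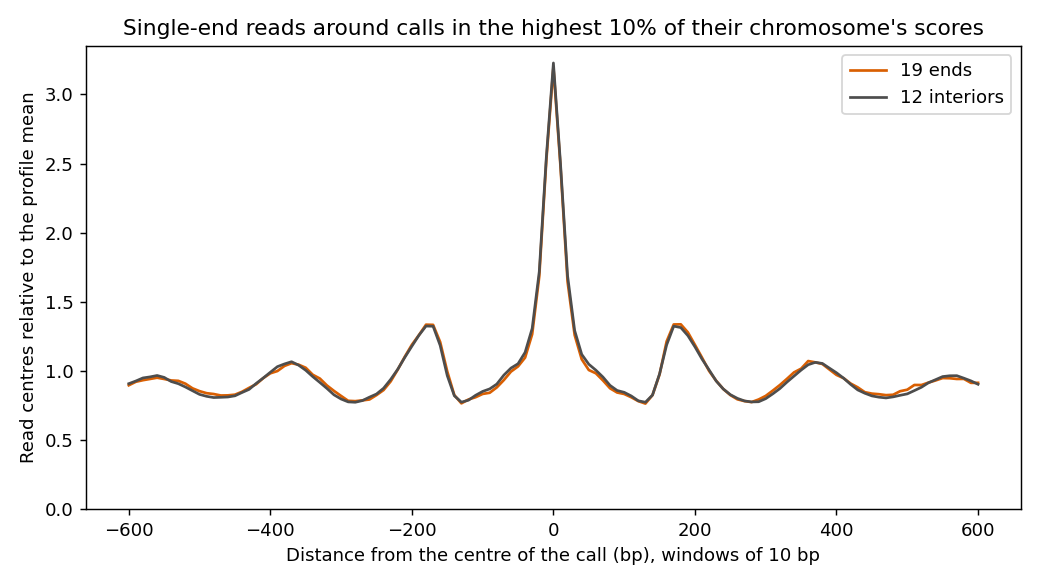
Centres of single-end reads around calls in the highest 10% of the scores of their own chromosome, in windows of 10 bp and relative to the mean of the profile, by distance from the centre of the call (bp). The curves for the 19 ends (40790 calls) and the 12 interiors (225024 calls) nearly coincide, with neighbours at 180 and 370 bp.

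Scores and reads went together more closely in the ends. Over single calls, the score in the second library and the number of reads of the first at the same call had a Spearman's rho of 0.488 ± 0.0601 in the ends and 0.395 ± 0.0439 in the interiors (mean ± SD over 12 chromosomes). It was higher on 11 of 12 chromosomes and in 18 of 19 ends, against 54.6% of windows. Among the ends it ran from 0.344 in the high end of chromosome 11, over a median of 0.503, to 0.568 in the high end of chromosome 7. These were also the ends with the lowest and the highest read density. In bins within 0.5 to 2 times the median read number, rho was 0.550 in the ends and 0.477 in the interiors, and was higher on 12 of 12 chromosomes. The ends were still denser in these bins (density ratio 1.096), so read density was not matched. Whether the difference in rho holds at equal density was not tested. Calls without any read at their centre made up 16.3% in the ends and 19.9% in the interiors. Calls are not independent of each other, and rho is given as a description.

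Reads at a position already held by another read of the same strand are called repeated, and can be copies from amplification or separate molecules. Their share was 14.8 ± 0.245% in the ends and 14.4 ± 0.205% in the interiors, a difference of 0.408 ± 0.370 percentage points. It was higher on 10 of 12 chromosomes and in 17 of 19 ends, against 39.5% of windows. It ran from 14.2% in the high end of chromosome 12 to 15.4% in the high end of chromosome 5. Within the ends, repeated reads made up 16.8% in read-rich bins, 14.5% in the other bins and 14.3% in read-poor bins. In bins within 0.9 to 1.1 times the median read number the difference was 0.00205 percentage points. With each position counted once, the ratio of densities was 1.13.

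The read-poor bins of the ends were mostly grouped. All 19 ends held some, and the 192 bins formed 89 stretches. Of these, 17 were at least 30 kb long and held 105 bins (54.7%), in 12 of the ends. The longest was 160 kb at chr6:30596786-30756785, with 589 reads, or 3.68 per kb, and yet 1334 calls. It was followed by 110 kb at chr7:1320001-1430000, with 375 reads and 1018 calls, and by 100 kb at chr11:27962085-28062084, with 827 reads and 992 calls. At the very tip of chromosome 9, the outermost 70 kb of the high end (chr9:22940565-23010564) had 68 reads, or 0.971 per kb, and 517 calls, or 7.39 per kb. The nearest read was found 1585 bp from that end, while a call reached the last position.

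The calls, which came from the other library, thus fell far less than the reads in read-poor bins. In the read-poor bins of the ends, reads were at 6.95 per kb and calls at 8.70 per kb. In the other bins, reads were at 77.1 and calls at 9.18 per kb, and in read-rich bins reads were at 126 and calls at 10.5 per kb. The median score was 0.475 in read-poor, 0.474 in the other and 0.529 in read-rich bins of the ends. High-score calls made up 10.1%, 11.1% and 14.9%. Read-poor bins of the interiors were similar, with 8.06 reads and 8.65 calls per kb, a median score of 0.479 and 9.97% high-score calls. The sequence and mapping of these bins were not analysed here.

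Single steps of 100 kb showed the same contrast. The median step had 8122.5 reads in the ends (380 steps) and 7177.5 in the interiors (2514 steps). The most reads, 11812, were found at chr8:27509174-27609173, 700 kb from the high end of chromosome 8, or 1.82 times the interior density. This step held 1022 calls with a median score of 0.593 and 18.8% high-score calls, and 17.3% of its reads were repeated. The next were chr2:900001-1000000 with 10778 reads and chr5:400001-500000 with 10596, at 1.46 and 1.60 times the interior. They held 1011 and 992 calls, of which 6.63% and 21.2% were high-score calls. Over the whole of chromosomes 2 and 5 the shares were 3.41% and 15.6%, so both steps were above the level of their chromosome.

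The fewest reads, 347, were found at chr6:30646786-30746785, 0.0513 times the interior density, with 826 calls and a median score of 0.505. The step at chr11:27962085-28062084 had 827 reads and 992 calls, the same number of calls as the read-rich step on chromosome 5. Its median score was 0.636 and 27.2% of its calls were high-score calls, among them the run of 11 described above, and 21.2% of its reads were repeated. The third, chr6:29246786-29346785, had 858 reads and 971 calls with a median score of 0.482. All of them belonged to the high ends of chromosomes 6 and 11, which were the ends of lowest mean density.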

How the data were processed

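Per the study's methods, the authors aligned the 36-bp reads with MAQ to TIGR release 5, allowed 1 mismatch and kept unique positions. Deposited for the single-end library were read coordinates, pooled over the technical replicates. For the paired-end library the authors deposited nucleR calls with a score, whose scale and threshold are not given in the sources used here, after dropping fragments above 200 bp and trimming the rest to their central 40 bp. A duplicate of the list of calls, equal in every byte, was set aside.

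Values were computed in Python 3.11.15 (numba 0.67.0, scipy 1.17.1, numpy 2.4.6, pandas 2.3.3) and drawn with matplotlib 3.10.9. Read centres were placed 73 bp inside the 5' ends. The first maximum of same-strand distances was sought from above 120 up to 270 bp and its trough from 80 bp on, after smoothing over 11 bp. Protected length was the maximum of forward-to-reverse distances at 80 to 300 bp. Distances of high-score calls were medians of those between 120 and 250 bp. The measures of density, spacing, length, calls and arrays were tested on simulated data. Depth was 71.3 reads per kb, or a median of 738 per 10 kb. Alternatives included end length, bin size, thresholds, read depth and all 24 ends.

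The members, measures and lists were chosen with earlier results of these data known. Positions named are, by rule, the ends with the highest and lowest value of a measure, the 3 steps of 100 kb with the most and the 3 with the fewest reads, the 3 longest runs of high-score calls and the extreme distance steps. The read-poor stretches were named after their values were seen. No gene annotation or genome sequence of the build was used.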

Additional observations from a re-analysis of the deposited data

How the results depend on the processing

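Of 101 alternatives planned, 92 left the value within the spread over chromosomes or the counting interval, 8 moved it and 1 reversed it. Of 53 added after seeing the data, 46 left it, 6 moved it and 1 reversed it. Only bins within 0.9 to 1.1 times the median read number gave a density ratio of 1.00, as their construction requires, a difference in repeated reads of 0.00205 percentage points, a periodicity ratio of 1.19, a call density ratio of 0.962, a score difference of 0.00338, a ratio of reads at calls of 0.941 (reversed) and an array rise ratio of 1.08. Bins within 0.5 to 2 times the median gave 0.988 (reversed) for reads at calls. Both reversed values kept the expected number of the whole 100-kb step, so they cannot show a change of direction at matched density. The ratio of call density, 0.993 as reported, was 1.05 when the lower-scoring 50% were dropped. It was 1.09 for calls that overlap no other, for which the score difference was 0.0202. Both ratios crossed 1 but were counted as moved, not as reversed. Changes of direction within the spread were counted as left. The share of read-rich bins was 12.2% in the outermost 1 Mb, 8.68% in 3 Mb, 8.15% over all 24 ends and 14.1% with bins of 50 kb, where read-poor bins made up 4.08%. The cause was not tested. Leaving out each chromosome in turn gave density ratios of 1.13 to 1.15 and high-score ratios of 1.20 to 1.24. The difference in spacing of high-score calls ranged from -0.182 to 1.14 bp. No paired analysis was possible because each form of the data had 1 replicate and the technical replicates were pooled. Without replicates, no difference was tested.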

Other observations

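The 5 low-coordinate ends left out by rule overlapped the ends used in read density. They ranged from 58.1 reads per kb on chromosome 11 to 68.8 on chromosome 10, or 0.820 to 1.03 times their interiors, and all but the low ends of chromosomes 4 and 10 were below the lowest of the ends used (66.6). They held 1 to 9 read-rich and 2 to 21 read-poor bins each. With thresholds set within chromosomes, high-score calls made up 9.39% in the low end of chromosome 4, 9.52% on chromosome 9 and 9.55% on chromosome 10, near the interior level, but 11.98% on chromosome 11 and 12.2% on chromosome 12, within the range of the ends used. The low end of chromosome 11 also had the highest periodicity of all 24 ends (18.6%) with the lowest read density, and the low end of chromosome 9 had the lowest periodicity (11.95%) and the most calls (9.78 per kb). Hence read density and the share of high-score calls did not go together in every end.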
